A study of Mus musculus with 30 samples.

Results

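The comparison described here is that of selenium given by mouth with no added selenium, in mice that received no mercury. The samples were chosen by their treatment label: the 5 hippocampus libraries labelled Se_Ctr against the 5 labelled Ctr, 10 of the 30 libraries of the study. All mice were male and of the inbred strain BALB/c. Ctr mice received neither added selenium nor mercury, and Se_Ctr mice received selenium by mouth, named as selenium-methionine in the title of the series. The other 4 groups, each of 5 libraries, received methylmercury by mouth in a low dose (LD and, with selenium, Se_LD) or a high dose (HD and Se_HD). According to the study's methods, young mice were housed singly, kept on experimental feed for several weeks and killed under isoflurane, and the hippocampus was dissected out and frozen. The added amount of selenium, the selenium content of the control feed and the hour of collection are not given in the sources used here. One library was made from each RNA sample. The whole hippocampus was used, so that fewer cells of a type and less RNA per cell cannot be told apart in any result that follows.

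Selenium acts in cells mainly as selenocysteine, an amino acid built into selenoproteins at a UGA codon (TGA in the DNA sequence) that would otherwise stop translation. The codon is read as selenocysteine through a hairpin in the 3' end of the messenger RNA, the protein Secisbp2, the elongation factor Eefsec and a dedicated transfer RNA. Selenoprotein P, encoded by Sepp1, carries selenium from the liver, and neurons take it up through the receptor Lrp8. In selenium-poor tissue, messenger RNAs of stress-related selenoproteins such as Gpx1 are known to be broken down earlier than those of housekeeping selenoproteins such as Gpx4 and Txnrd1. The brain is known to hold on to selenium when other organs lose it.

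The question was thus which RNAs differed between Se_Ctr and Ctr hippocampus. Values are normalized counts, that is, reads on a gene divided by a size factor of the library. A log2 fold change is the mean of log2(normalized count + 1) in Se_Ctr minus that in Ctr, and is given with its standard error (SE). Adjusted p-values are from limma with Benjamini-Hochberg adjustment over all genes tested. Each gene was tested with limma (two-sided), and a gene is called higher or lower here where its unadjusted p was under 0.05, the threshold of the study's methods. Levels are given as mean ± SD over 5 mice.

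Reads on genes ranged from 5768208 to 9121958 in the Ctr libraries and from 7277756 to 10488656 in the Se_Ctr libraries. The Se_Ctr libraries were deeper on average (exact two-sided permutation test, p = 0.0397). Library 13 of Ctr stood apart: 13.6% of its reads lay on mt-Rnr1, mt-Rnr2, Lars2, Gm15564 and AY036118, against 1.59% to 2.61% in the other 9 libraries. Counts of several gene lists are therefore also given without it. The labelled tissue held its defining markers: Prox1 of the dentate gyrus was at 459 to 1138 normalized counts in Ctr and 731 to 1341 in Se_Ctr, and Wfs1 of CA1 at 783 to 1935 and 1298 to 1666.

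No gene passed after adjustment. Of 18930 genes tested with limma, 777 (4.1%) had an unadjusted p under 0.05, fewer than the 946 that 5% of the genes would make. Of these, 298 (1.57%) were higher and 479 (2.53%) were lower in Se_Ctr. At a Benjamini-Hochberg adjusted p under 0.05 there was no gene (0.0%) with limma, with edgeR, which had 862 genes at an unadjusted p under 0.05, or with DESeq2, which had 695. The lowest adjusted p with limma was 0.862. Without library 13 the unadjusted count was 1171 of 18546 genes (6.31%), again with none after adjustment. In 58 genes (0.306%) all 5 Se_Ctr mice lay above all 5 Ctr mice, and in 86 genes (0.454%) all lay below. No gene called higher or lower in the following text passed adjustment. The p-values measure the spread between mice of these 10 libraries.

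**Figure D1:**
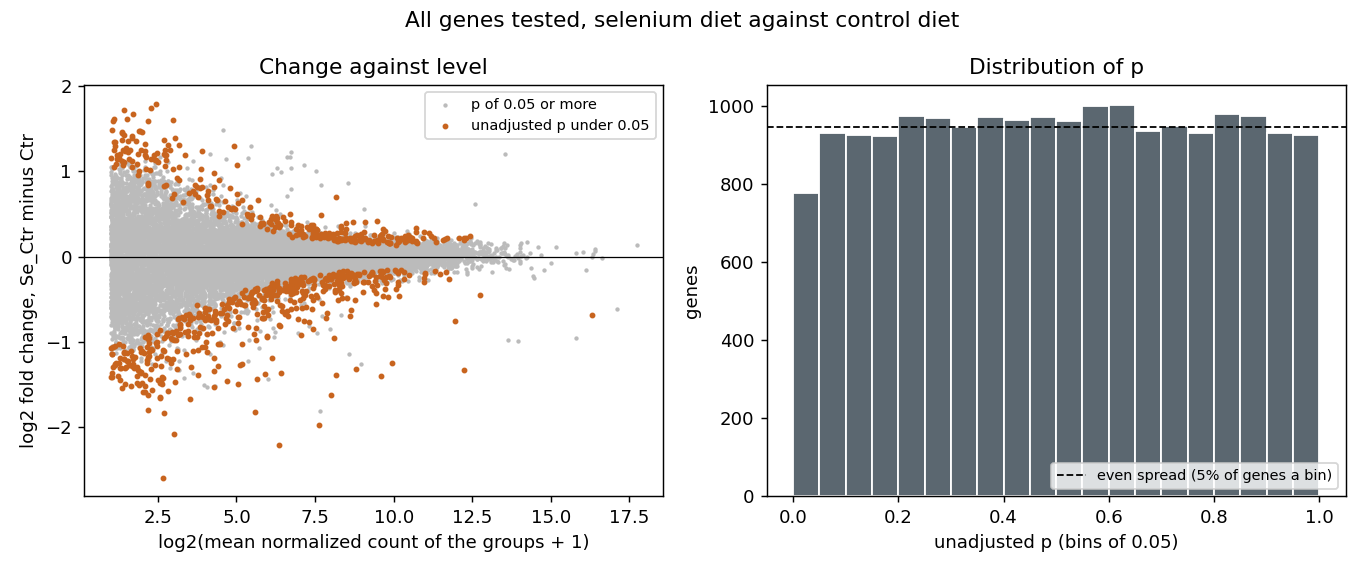
Left, log2 fold change (Se_Ctr minus Ctr) of each of 18930 genes against its mean level on a log2 scale, with the 777 genes of unadjusted p under 0.05 in orange. Right, the number of genes in each bin of unadjusted p, where the lowest bin holds 777 genes against 946 for an even spread (dashed line).

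Differences were small where genes were well expressed. Among the 14269 genes averaging 10 or more normalized counts, the 562 called genes had a median absolute log2 fold change of 0.38. Over the same 14269 genes the median half-width of the 95% interval was 0.26 on the log2 scale. This is the precision that 5 mice a group gave for a typical gene.

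Of the 19 selenoproteins tested, Sepw1 was called higher and Dio2 lower, and the other 17 did not pass, where 4.1% of all genes were called. Without library 13 the counts were again 1 higher and 1 lower. All 19 carry an annotated selenocysteine codon, and 17 of them carry 1. One codon a gene is shown in capitals below for these called genes and for 4 selenoenzymes that did not pass, with the bases around it in lower case on the coding strand, read from transcripts of build NCBIM37. Dio2 has 2 annotated selenocysteine codons, of which the first is shown. In Txnrd1 the codon is the last but one, so the sequence ends at the stop codon.
Dio2 (chr12:91968263-91968265, minus strand): ggttcagccaccTGAccacctttcactagg
Sepw1 (chr7:16505813-16505815, minus strand): tattgtggagctTGAggctataagcccaag
Gpx1 (chr9:108241782-108241784, plus strand): gtcgcgtctctcTGAggcaccacgatccgg
Gpx4 (chr10:79517482-79517484, plus strand): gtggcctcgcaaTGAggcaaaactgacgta
Txnrd1 (chr10:82358782-82358784, plus strand): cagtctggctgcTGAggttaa
Sephs2 (chr7:134417245-134417247, minus strand): ggcatgaagggcTGAggctgcaaggtcccc

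Dio2 (ENSMUSG00000007682, chr12:91962994-91976878) encodes the deiodinase of astrocytes that makes active thyroid hormone. Its normalized counts were 689, 703, 739, 774 and 869.9 in Ctr and 541, 613, 634, 689 and 720.4 in Se_Ctr mice. The groups overlapped, with the means at 755 ± 72.3 and 639.6 ± 69.7 (log2 fold change -0.24, SE 0.09, adjusted p = 0.997). Without library 16 of Se_Ctr, which was the lowest, it was no longer called (log2 fold change -0.18). Nor was it called in a fit of all 30 libraries.

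Sepw1 (ENSMUSG00000041571, chr7:16502557-16507751) encodes selenoprotein W, a small redox protein that is abundant in brain and muscle. It was the most abundant selenoprotein here by level per length, at 6911 normalized counts per kilobase of exon in Ctr, against 700.3 for Sepp1 and 636 for Gpx4. Its normalized counts were 3858, 5091, 5297, 5344 and 5844 in Ctr and 5407, 5447, 6021, 6224 and 6768 in Se_Ctr mice. The ranges overlapped and 1 Ctr mouse, library 25, lay far below the others (log2 fold change 0.24, SE 0.10, adjusted p = 0.997). Without library 4, 10, 22 or 25 it was no longer called (log2 fold changes 0.14 to 0.24). Nor was it called with quantile normalization, without the limma trend or in a fit of all 30 libraries.

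The glutathione peroxidases, which reduce peroxides with glutathione, gave intervals on both sides of 0. Gpx1 had 152 ± 19.8 normalized counts in Ctr and 141 ± 24.6 in Se_Ctr (log2 fold change -0.12, 95% interval -0.41 to 0.17). Gpx4, which protects membrane lipids, had 1065 ± 178 and 1039.5 ± 139.6 (log2 fold change -0.03, interval -0.27 to 0.21). The interval of Gpx4 was narrower than that of Gpx1.

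The thioredoxin reductases, which keep thioredoxin reduced, did not pass either. Txnrd1 of the cytosol had 436 ± 39.0 normalized counts in Ctr and 469.9 ± 26.8 in Se_Ctr (log2 fold change 0.11, interval -0.062 to 0.28). Txnrd2 of mitochondria had a log2 fold change of 0.13 (95% interval -0.17 to 0.43). Sephs2, itself a selenoprotein and the enzyme that makes the selenium donor, had 0.092 (95% interval -0.22 to 0.41). Dio3, which inactivates thyroid hormone, varied widely: its normalized counts were 12.3, 13.3, 16.6, 27.0 and 81.7 in Ctr and 7.17, 39.9, 39.9, 50.1 and 63.7 in Se_Ctr (95% interval -0.61 to 1.63), with library 13 as the high Ctr value.

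Sepp1 had 1992 ± 204 normalized counts in Ctr and 1865 ± 113 in Se_Ctr (log2 fold change -0.092, interval -0.26 to 0.076). Selenoproteins of the endoplasmic reticulum were close to 0 on the same scale, at -0.012 for Selk, 0.073 for Sep15, 0.048 for Selm and 0.072 for H47, which encodes selenoprotein S. The median log2 fold change was 0.10 over the 10 selenoprotein enzymes and 0.048 over the other 9 selenoproteins, against 0.0033 over all genes tested. No selenoprotein had groups that did not overlap.

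**Figure D2:**
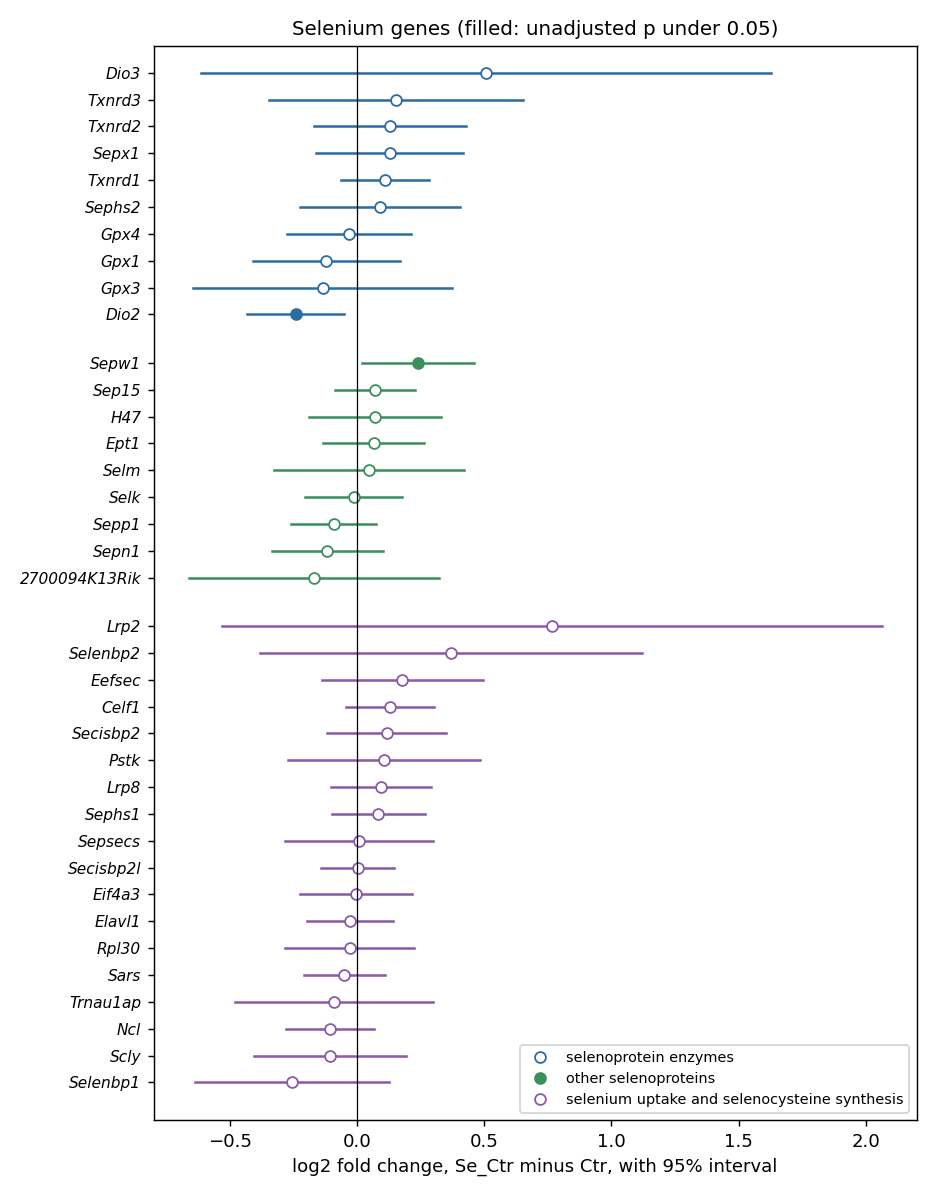
Log2 fold change (Se_Ctr minus Ctr, 5 mice a group) with its 95% interval for 10 selenoprotein enzymes, 9 other selenoproteins and 18 genes of selenium uptake and selenocysteine synthesis, with filled points where the unadjusted p was under 0.05. The intervals of 35 of the 37 genes include 0; Dio2 lies below and Sepw1 above.

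None of the 18 genes of selenium uptake and selenocysteine synthesis was called. Lrp8, the receptor for selenoprotein P on neurons, had 738 ± 100.02 normalized counts in Ctr and 784 ± 57.3 in Se_Ctr (log2 fold change 0.094, interval -0.10 to 0.29). Secisbp2, which binds the selenocysteine hairpin, had 0.12 (95% interval -0.12 to 0.35), Eefsec had 0.18 (95% interval -0.14 to 0.49) and Sepsecs, the last enzyme of selenocysteine synthesis on its transfer RNA, had 0.0074 (95% interval -0.28 to 0.30). Scly, the lyase that frees selenium from selenocysteine, had -0.11 (95% interval -0.41 to 0.19). The median over the 18 genes was 0.0056, and without library 13 again none was called.

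Selenomethionine enters cells and is broken down by the routes of methionine. None of 27 genes of the methionine cycle and transsulfuration was called, with a median log2 fold change of 0.0070, and without library 13, 1 was lower. Of 11 amino acid transporters that take methionine or cystine, 2 were called, both lower, against 2.53% of all genes. Without library 13, 1 was lower, and in the fit of all 30 libraries none of the 11 was called. Slc38a2, a sodium-coupled transporter of small neutral amino acids including methionine, had 1404, 1433, 1469, 1638 and 1679 normalized counts in Ctr and 1251, 1272, 1287, 1336 and 1428 in Se_Ctr mice. Only the highest Se_Ctr mouse, library 10, lay within the Ctr range (log2 fold change -0.21, SE 0.074, adjusted p = 0.997). Slc7a11, the cystine carrier that feeds glutathione synthesis, had 479 ± 117 in Ctr and 377 ± 27.9 in Se_Ctr (log2 fold change -0.31, 95% interval -0.60 to -0.028). Its Ctr mean held the value of library 13, the highest of the 10, and without it the log2 fold change was -0.19. The call was lost without library 4, 13, 16, 19, 22 or 25.

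Slc7a11 was the only one of 26 genes of the NRF2 pathway and glutathione synthesis that was called, against 4.1% of all genes, and none of 21 superoxide, peroxide and thioredoxin enzymes was. Without library 13 no gene of either list was called. Of 21 glutathione S-transferases, which couple glutathione to reactive compounds, Gstm6 and Gsta4 were higher, against 1.57% of all genes. Without library 13, 3 were higher, against 2.73% of all genes. Gstm6 had 16.9, 25.4, 25.5, 26.9 and 30.6 normalized counts in Ctr and 30.6, 31.3, 39.8, 42.1 and 52.7 in Se_Ctr (log2 fold change 0.63, SE 0.22, adjusted p = 0.997). Gsta4, which acts on products of lipid peroxidation, had 359.5 ± 45.7 and 412 ± 26.2 (log2 fold change 0.20, 95% interval 0.0044 to 0.40). The Gsta4 call was lost without any one of 8 of the 10 libraries (1, 4, 7, 10, 16, 19, 22 or 25) (log2 fold changes 0.14 to 0.22), and Gstm genes are near-identical copies whose reads can be split between them.

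Among 18 genes of metal handling, Tfrc was higher and Mt1 lower, against 1.57% and 2.53% of all genes. Without library 13, where 6.31% of all genes were called, 2 were higher and 1 lower. Tfrc, the receptor that takes up iron-loaded transferrin, had 1226 ± 105 normalized counts in Ctr and 1407 ± 159 in Se_Ctr (log2 fold change 0.20, 95% interval 0.015 to 0.38), with library 28 of Se_Ctr far above the rest; the call was lost without library 1, 10, 19 or 28 (log2 fold changes 0.13 to 0.20). Mt1, a metallothionein that binds zinc, copper and mercury, had 842, 972, 1023, 1141 and 1154 in Ctr and 669, 795, 923, 945 and 1026 in Se_Ctr. The ranges overlapped widely (log2 fold change -0.24, SE 0.11, adjusted p = 0.997), and the call was lost without any one of libraries 1, 4, 7, 19, 25 and 28 (log2 fold changes -0.26 to -0.15). Mt2, its neighbour on the chromosome, had -0.18 (95% interval -0.51 to 0.15). Of 18 genes of thyroid hormone action, Dio2 and Dbp were called, both lower, against 2.53% of all genes. The count was also 2 without library 13, and none of the 18 was called in the fit of all 30 libraries.

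Several circadian clock genes were lower in Se_Ctr, and Arntl was higher. The clock is a loop in which Arntl and Clock switch on Per, Cry and Nr1d genes, whose proteins in turn repress Arntl and Clock activity, and Dbp, Tef and Hlf pass the rhythm on to output genes. These arms are known to peak at different hours of the day. Of 19 clock genes, 8 were lower, 1 was higher and 10 did not pass, against 2.53% lower and 1.57% higher among all genes. The median log2 fold change was -0.18, and 17 of the 19 were below 0. Without library 13, 7 were lower and 1 higher, where 3.58% of all genes were lower. The count of lower genes ranged from 5 (without library 4 or 22 of Se_Ctr) to 9 (without library 19 of Ctr), and it was 5 without the limma trend and 6 in the fit of all 30 libraries.

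Hlf (ENSMUSG00000003949, chr11:90197849-90252231), a transcription factor of the output arm, had 1155, 1167, 1291, 1419 and 1637 normalized counts in Ctr and 775, 936, 946, 966 and 1246 in Se_Ctr mice. Only 1 Se_Ctr mouse, library 16, lay within the Ctr range (log2 fold change -0.46, SE 0.12, adjusted p = 0.997). Nr1d2 (ENSMUSG00000021775, chr14:19036568-19071641), the nuclear receptor REV-ERB beta that represses Arntl, had 818, 1055, 1094, 1145 and 1149.5 in Ctr and 617, 690.4, 707, 779 and 1039 in Se_Ctr. Library 16 was again the high Se_Ctr mouse, and library 19 was the low Ctr mouse (log2 fold change -0.47, SE 0.12, adjusted p = 0.997).

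Per2, a repressor of the loop, had 296, 313, 329, 371 and 406 normalized counts in Ctr and 211, 244, 267, 288 and 309 in Se_Ctr (log2 fold change -0.38, SE 0.11, adjusted p = 0.997). Per3 had 259.6, 264, 389, 413 and 450.4 and 184, 191, 233, 302 and 338 (log2 fold change -0.51, SE 0.18, adjusted p = 0.997). Both pairs of groups overlapped, by 1 Se_Ctr mouse in Per2 and by 2 in Per3. Bhlhe41, a repressor also known as Dec2, had 519.7, 602, 670.4, 706 and 714 in Ctr and 477, 511, 519, 534 and 565 in Se_Ctr (log2 fold change -0.29, SE 0.092, adjusted p = 0.997).

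Gm129, the repressor now named Ciart, had 31.2, 59.5, 83.1, 88.1 and 89.0 normalized counts in Ctr and 27.0, 27.3, 38.5, 45.6 and 72.6 in Se_Ctr (log2 fold change -0.72, 95% interval -1.36 to -0.089). Dbp had 154, 215, 237, 269 and 350.5 and 122, 122, 151, 177 and 282 (log2 fold change -0.54, 95% interval -1.01 to -0.073). In both genes library 16 was the highest Se_Ctr mouse and library 19 the lowest Ctr mouse. Their calls were not kept in every fit that left out 1 library. Dbp was no longer called without library 4, 7, 10, 13 or 22 (log2 fold changes -0.52 to -0.40), nor Gm129 without library 1, 4, 7, 22 or 25 (log2 fold changes -0.64 to -0.59). Rorb, an activator of Arntl that also marks layers of the neocortex, had -0.26 (95% interval -0.52 to -0.0014), and its call was lost without any one of 7 libraries (1, 4, 13, 16, 22, 25 or 28).

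Arntl, the activator of the loop, was the 1 clock gene that was higher. Its normalized counts were 223, 245, 285, 311 and 353 in Ctr and 280.1, 357, 371, 379.9 and 390.3 in Se_Ctr (log2 fold change 0.34, SE 0.12, adjusted p = 0.997). Here library 16 was the lowest Se_Ctr mouse, and library 19 the highest Ctr mouse. Its partner Clock had 748 ± 117 in Ctr and 726 ± 80.6 in Se_Ctr (95% interval -0.26 to 0.19). Nr1d1, Per1, Cry1 and Cry2 had log2 fold changes of -0.18, -0.28, -0.14 and -0.042 and did not pass.

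**Figure D3:**
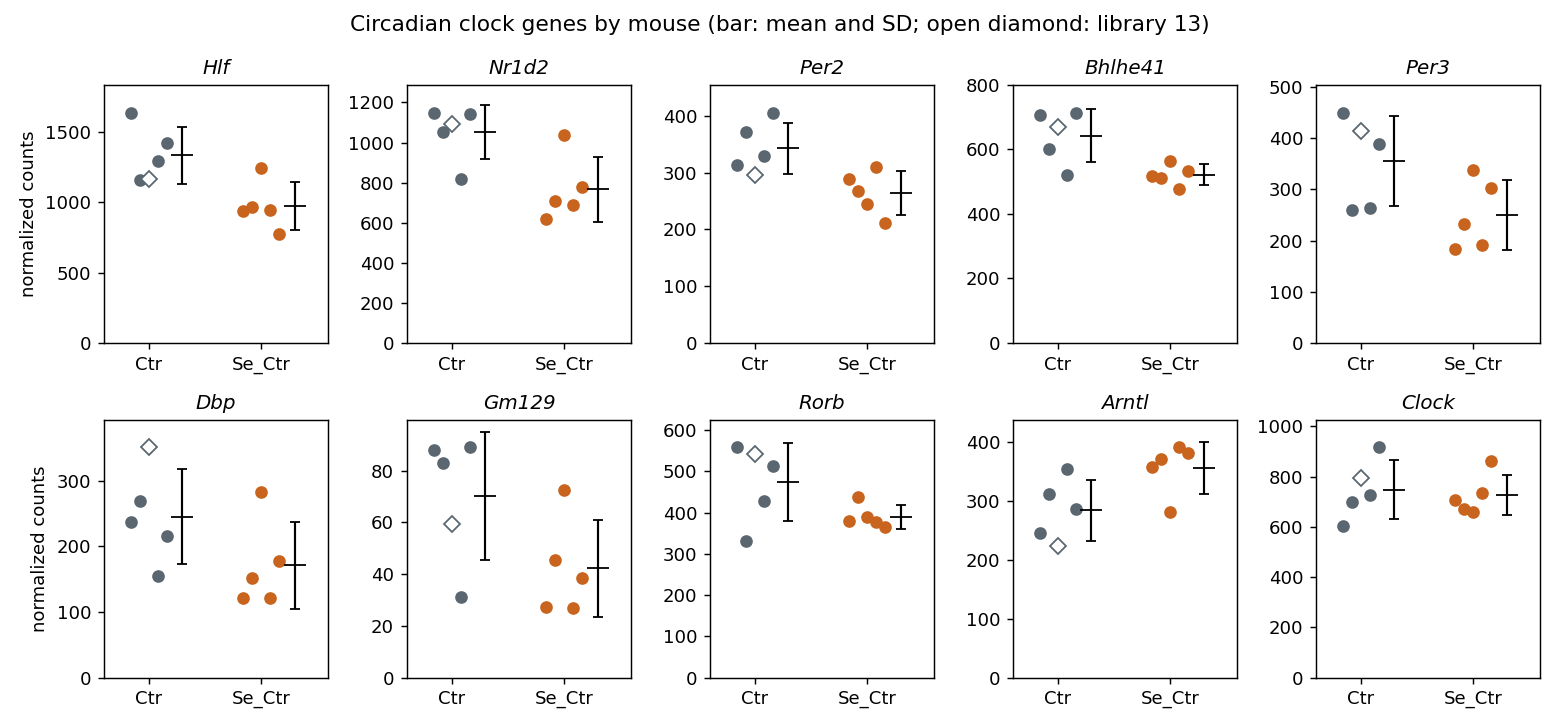
Normalized counts of 10 clock genes in each mouse of Ctr (grey) and Se_Ctr (orange), 5 mice a group, with the mean and SD as a bar and library 13 as an open diamond. Hlf, Nr1d2, Per2, Bhlhe41, Per3, Dbp, Gm129 and Rorb were lower in Se_Ctr and Arntl higher; all of them overlap, and Clock did not pass.

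The promoters of called clock genes are shown because these genes are known targets of one another's products. Bases 250 to 1 before the start of transcription were taken from RefSeq on build GRCm38.p6, for the 4 called clock genes in which a searched motif was found, and the motif is in capitals. The motifs, searched on both strands, were the E-box CACGTG bound by the Arntl and Clock proteins, the D-box TTATGTAA bound by Dbp, Tef and Hlf, and the nuclear receptor site AGGTCA. Of 32851 promoters of this length, 6.02% hold the E-box, 0.819% the D-box and 14.0% the receptor site.
Gm129 (chr3:95882229-95882478, minus strand, E-box): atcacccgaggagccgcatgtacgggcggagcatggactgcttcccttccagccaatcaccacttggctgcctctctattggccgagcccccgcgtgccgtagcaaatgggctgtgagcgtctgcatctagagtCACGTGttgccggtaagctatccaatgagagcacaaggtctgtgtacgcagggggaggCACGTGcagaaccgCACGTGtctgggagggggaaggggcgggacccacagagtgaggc
Bhlhe41 (chr6:145865421-145865670, minus strand, E-box): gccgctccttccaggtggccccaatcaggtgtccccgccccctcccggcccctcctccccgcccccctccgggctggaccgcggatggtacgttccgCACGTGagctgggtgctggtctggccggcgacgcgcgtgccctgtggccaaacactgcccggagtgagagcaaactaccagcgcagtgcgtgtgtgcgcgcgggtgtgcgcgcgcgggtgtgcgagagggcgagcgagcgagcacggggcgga
Per3 (chr4:151044666-151044915, minus strand, D-box): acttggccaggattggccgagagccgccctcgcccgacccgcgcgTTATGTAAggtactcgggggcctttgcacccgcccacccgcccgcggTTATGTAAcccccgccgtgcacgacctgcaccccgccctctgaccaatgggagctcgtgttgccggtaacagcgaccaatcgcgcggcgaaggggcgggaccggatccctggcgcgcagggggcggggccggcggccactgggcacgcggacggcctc
Nr1d2 (chr14:18239107-18239356, minus strand, receptor site): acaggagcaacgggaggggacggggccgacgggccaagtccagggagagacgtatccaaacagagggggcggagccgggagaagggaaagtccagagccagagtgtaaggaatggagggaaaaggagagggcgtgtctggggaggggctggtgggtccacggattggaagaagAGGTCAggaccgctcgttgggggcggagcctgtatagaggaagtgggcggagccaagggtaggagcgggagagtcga
Gm129 held 3 E-boxes, starting 116, 58 and 44 bases before the start, and Bhlhe41 held 1. Per3 held 2 D-boxes, starting 205 and 158 bases before the start. Promoters of Hlf, Dbp, Rorb and Arntl held none of these letters in this window, and Per2 is named only. The matches are a description of the sequence.

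Of 14 genes that glucocorticoids are known to regulate, 2 were lower and 1 higher, where 2.53% of all genes were lower and 1.57% higher. Tsc22d3, an anti-inflammatory leucine zipper protein, had 289, 452, 533, 623 and 673 normalized counts in Ctr and 307, 316, 319, 365 and 443 in Se_Ctr. Library 13 of Ctr lay below all Se_Ctr mice, and the other 4 Ctr mice lay above all of them (log2 fold change -0.51, SE 0.18, adjusted p = 0.997), and without it the log2 fold change was -0.70. Plin4, a lipid droplet protein, had 41.5 ± 21.8 and 22.3 ± 5.93 (log2 fold change -0.78, 95% interval -1.38 to -0.18). Nr3c2, the mineralocorticoid receptor, had 1511 ± 209 in Ctr and 1866 ± 395 in Se_Ctr (log2 fold change 0.29, 95% interval 0.026 to 0.56), and its call was lost without library 1, 10, 19, 22 or 28 (log2 fold changes 0.18 to 0.29). Fkbp5, a sensitive target of the glucocorticoid receptor, had 0.10 (95% interval -0.15 to 0.36), and Sgk1 had -0.10 (95% interval -0.43 to 0.22). Without library 13, 5 of the 14 were lower, against 3.58% of all genes.

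Of 20 immediate early genes, which neurons switch on within minutes of activity, only Fosl2 was called (785 ± 133 in Ctr, 626 ± 122 in Se_Ctr, log2 fold change -0.33, 95% interval -0.62 to -0.046), against 4.1% of all genes called. Library 13 was the lowest Ctr mouse for Fosl2, Arc and Fos. Arc, a regulator of synapse strength, had 237, 1145, 2279.9, 2377 and 2754 normalized counts in Ctr and 772, 829.9, 1335, 1565 and 1743 in Se_Ctr, and Fos had 42.5, 185, 350.4, 379.8 and 542 and 77.1, 124, 234, 249 and 289.6. Without library 13, 10 of the 20 were lower, against 3.58% of all genes, and without library 10, 2 were. Without library 1, 16, 19, 25 or 28 none was.

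Of 14 heat shock genes, Hspa1b and Dnajb1 were lower, against 2.53% of all genes. Hspa1b, the inducible chaperone Hsp70, had 27.2, 76.7, 89.8, 118 and 179 normalized counts in Ctr and 24.8, 25.1, 28.1, 42.4 and 81.7 in Se_Ctr (log2 fold change -1.18, SE 0.40, adjusted p = 0.997). Its lowest Ctr mouse was library 13, and without it the log2 fold change was -1.58. Its near-identical copy Hspa1a had -0.84 (95% interval -1.82 to 0.15), and reads may be split between the copies. Dnajb1, a co-chaperone of Hsp70, had 429 ± 137 and 305 ± 101 (log2 fold change -0.48, 95% interval -0.93 to -0.037), and was called in only 3 of the 10 fits that left out 1 library (without 4, 10 or 13). The count of lower genes in the list was 3 without library 10 or 13 and 1 without library 1, 16, 19, 22, 25 or 28. Hsp90ab1, the constitutive and most counted of the set, had 0.014 (95% interval -0.17 to 0.20).

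Of 24 genes of the integrated stress and unfolded protein responses, Mthfd2, Pdia4 and Xbp1 were lower and none was higher, against 2.53% of all genes lower. Mthfd2, a folate enzyme of mitochondria, had 45.1, 45.4, 49.3, 55.5 and 57.5 normalized counts in Ctr and 24.2, 35.8, 38.7, 39.9 and 42.2 in Se_Ctr. All Se_Ctr mice lay below all Ctr mice (log2 fold change -0.49, SE 0.18, adjusted p = 0.997), where 0.454% of all genes had that pattern. Without library 16 the call was lost (log2 fold change -0.36). Pdia4 and Xbp1, a folding enzyme and a transcription factor of the endoplasmic reticulum, had -0.32 (95% interval -0.60 to -0.035) and -0.31 (95% interval -0.60 to -0.015). Library 25 of Ctr was highest for both, and without it neither was called. Pdia4 was also lost without library 4, 22 or 28 (log2 fold changes -0.30 to -0.20 over these fits), and Xbp1 without 1, 4, 10, 22 or 28 (log2 fold changes -0.32 to -0.16). Atf4, the main transcription factor of the response, had -0.0014 (95% interval -0.26 to 0.25) and Asns 0.12 (95% interval -0.033 to 0.28). The median of the list was -0.12 (-0.15 to -0.058 with 1 library left out). In the list, 1 gene was lower without library 4, 22, 25 or 28, 2 without 1 or 16 and 5 without 7. In a fit of all 30 libraries none of the 24 was called.

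Several genes of vessels, fibroblasts and blood were lower in Se_Ctr. Vwf (ENSMUSG00000001930, chr6:125496792-125636697), the clotting factor stored in endothelial cells, had 89.3, 106, 124, 135 and 157 normalized counts in Ctr and 66.2, 69.2, 71.2, 76.2 and 86.0 in Se_Ctr mice. All 5 Se_Ctr mice lay below all 5 Ctr mice (log2 fold change -0.70, SE 0.15, adjusted p = 0.862), where 0.454% of all genes had that pattern. Vwf was named for its value among all genes tested and is not on the list of markers that follows. Of 19 markers of endothelium and pericytes, 3 were lower and none was higher, against 2.53% of all genes lower. Abcb1a, the drug efflux pump of the blood-brain barrier, had 255, 267, 279, 283 and 309.9 in Ctr and 212, 216, 233, 251 and 253 in Se_Ctr, again without overlap (log2 fold change -0.26, SE 0.09, adjusted p = 0.997). Acta2 of smooth muscle had -0.50 (95% interval -0.94 to -0.07) and the growth factor receptor Flt1 -0.19 (95% interval -0.36 to -0.014). Acta2 was lost without library 10, 13, 16 or 19 (log2 fold changes -0.48 to -0.35), and Flt1 without 1, 13, 16, 22 or 25 (log2 fold changes -0.19 to -0.15). Without library 13, where 3.58% of all genes were lower, and without library 16 only 1 of the 19 was called, Abcb1a, without library 1, 10, 19 or 22 there were 2, and without library 25 there were 5. The median over the list was -0.076 (-0.16 to -0.063 with 1 library left out).

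Of 15 markers of meninges and fibroblasts, 7 were lower and none was higher, against 2.53% of all genes lower. The list median was -0.73 (-0.80 to -0.41 with 1 library left out). Col1a1 (ENSMUSG00000001506, chr11:94797538-94814356), a chain of type I collagen, had 77.8, 85.7, 97.2, 112 and 146 normalized counts in Ctr and 49.3, 50.4, 53.6, 65.4 and 72.2 in Se_Ctr. Col3a1, the chain of type III collagen, had 40.9, 41.0, 50.7, 81.3 and 90.2 and 23.4, 29.4, 29.8, 34.0 and 35.4. In both, all Se_Ctr mice lay below all Ctr mice, a pattern that 0.454% of all genes had. The log2 fold change was -0.81 for Col1a1 (SE 0.18, adjusted p = 0.862) and -0.91 for Col3a1 (SE 0.23, adjusted p = 0.997).

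Fmod, a collagen-binding proteoglycan, had 103, 106, 109, 257 and 334 normalized counts in Ctr and 65.4, 79.7, 79.8, 89.0 and 110.0 in Se_Ctr (log2 fold change -0.92, 95% interval -1.52 to -0.32). Col1a2 had -0.73 (95% interval -1.21 to -0.25) and Slc22a6, an organic anion carrier of the leptomeninges, -0.98 (95% interval -1.70 to -0.26). Ogn and Ptgds were lower at -0.82 and -0.75. Libraries 13 and 19 held the highest Ctr values of Fmod, Ogn and Ptgds. The sum of the 15 was 4937 to 16536 in Ctr and 4010 to 8402 in Se_Ctr. Without library 13, 19, 22 or 28, 5 of 15 were lower, where 3.58% of all genes were lower in the fit without library 13. Ogn was lost in each of these fits (log2 fold changes -0.75 to -0.55), and Ptgds in them and without library 10 (log2 fold changes -0.74 to -0.45). Without library 28, 1 member was higher. Other markers of the list did not follow, among them Igf2 at -0.083 (95% interval -0.74 to 0.58) and Dcn at 0.18 (95% interval -0.52 to 0.88). In the fit of all 30 libraries 3 of 15 were called. Whether meningeal tissue was carried along with single hippocampi was not tested.

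Hbb-b1 and Alas2, genes of red cells, were also lower. Hbb-b1, the adult beta globin, had 153, 163, 182, 284 and 322 normalized counts in Ctr and 92.6, 94.98, 105, 125 and 189 in Se_Ctr (log2 fold change -0.85, SE 0.22, adjusted p = 0.997). Alas2, the haem-making enzyme of red cell precursors, had 15.3, 25.4, 27.0, 37.8 and 40.8 and 8.64, 12.4, 14.1, 14.2 and 17.9 (log2 fold change -1.02, SE 0.28, adjusted p = 0.997). Hba-a1 and Hba-a2, near-identical alpha globin copies, had -0.78 (95% interval -1.65 to 0.096) and -0.95 (95% interval -1.90 to 0.0034). Of 8 red cell markers 2 were lower, against 2.53% of all genes. Without library 13, 4 were lower, against 3.58% of all genes, and without library 10, 3 were. The part of blood left in the vessels in these values was not tested.

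The choroid plexus, the tissue that makes cerebrospinal fluid and lies against the hippocampus, varied widely between mice. The sum of its 21 markers was 2484 to 44563 normalized counts in Ctr and 11131 to 31401 in Se_Ctr. None of the 21 was called, but 20 had a log2 fold change above 0, with a median of 0.62. The median was 0.25 to 1.1 with 1 library left out, 0.33 with edgeR and 0.31 with DESeq2. Folr1, a folate receptor of its epithelium, had 8.45, 19.2, 76.5, 104 and 224 in Ctr and 63.6, 103, 129.7, 141 and 192 in Se_Ctr. Library 7 of Ctr was the highest, and without it 15 of the 21 were higher in Se_Ctr, against 2.34% of all genes. Without library 13, 3 were higher, against 2.73% of all genes. The collagen genes above were lower while these markers were not.

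**Figure D4:**
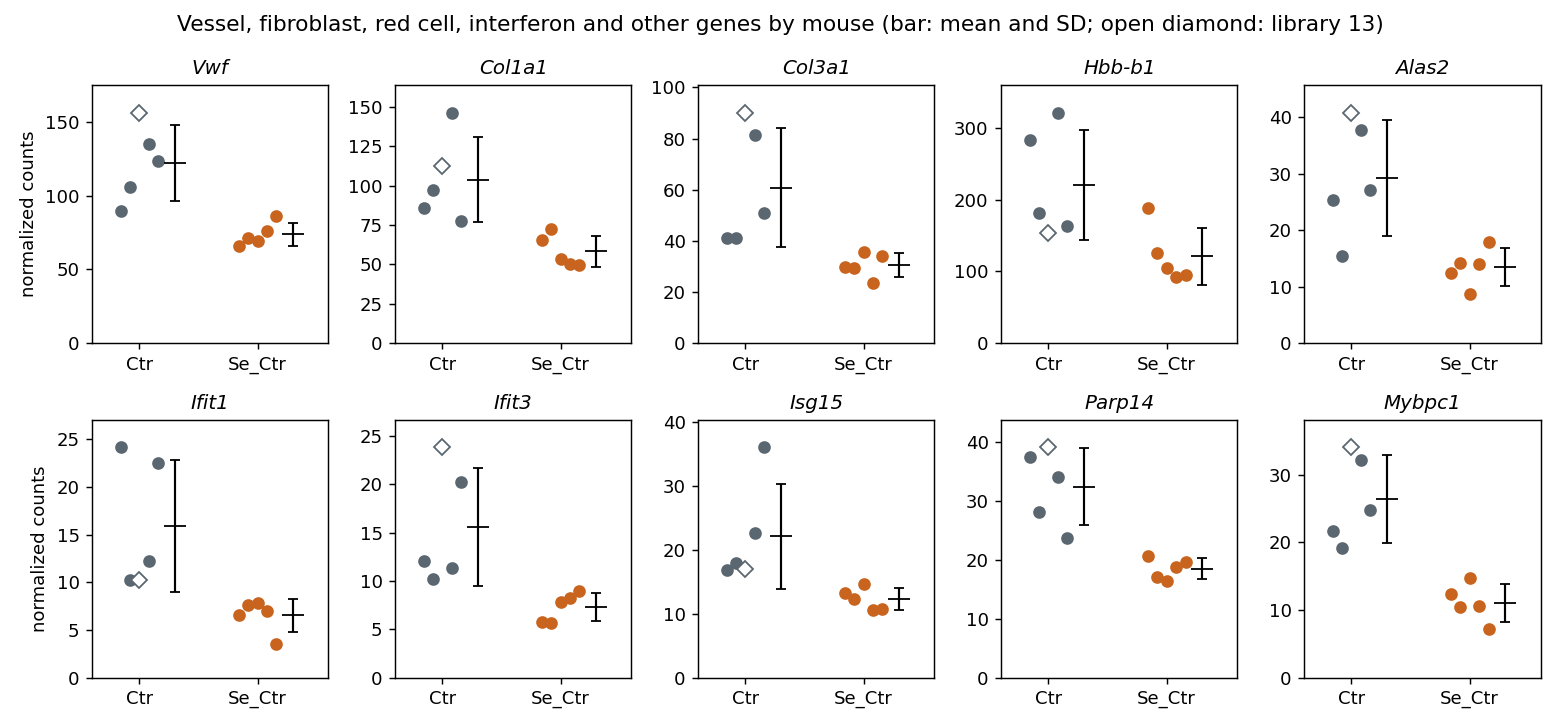
Normalized counts of Vwf, Col1a1, Col3a1, Hbb-b1, Alas2, Ifit1, Ifit3, Isg15, Parp14 and Mybpc1 in each mouse of Ctr (grey) and Se_Ctr (orange), 5 mice a group, with the mean and SD as a bar and library 13 as an open diamond. In all but Hbb-b1 and Alas2, every Se_Ctr mouse lies below every Ctr mouse, a pattern that 0.454% of all genes tested had. Several of these genes were named because their groups did not overlap.

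Several interferon-response genes of low expression were lower in Se_Ctr. Of 19 tested, 4 were lower and none was higher, against 2.53% of all genes lower, with a list median of -0.27 and 15 of the 19 below 0. Without library 13, 7 were lower, against 3.58% of all genes. The summed level of the 19 was 1504 to 1660 normalized counts in Ctr and 1387 to 1479 in Se_Ctr, so that no Se_Ctr mouse reached the lowest Ctr mouse. Ifit1, which binds foreign RNA, had 10.2, 10.2, 12.3, 22.5 and 24.1 normalized counts in Ctr and 3.58, 6.62, 7.03, 7.60 and 7.78 in Se_Ctr (log2 fold change -1.11, SE 0.33, adjusted p = 0.997). Ifit3, its partner, had 10.2, 11.3, 12.1, 20.3 and 23.8 and 5.70, 5.79, 7.78, 8.20 and 8.96 (log2 fold change -0.94, SE 0.30, adjusted p = 0.997). Isg15, a ubiquitin-like protein, had 16.9, 17.0, 17.9, 22.7 and 36.1 and 10.6, 10.8, 12.3, 13.2 and 14.7 (log2 fold change -0.74, SE 0.26, adjusted p = 0.997). In these 3 genes no Se_Ctr mouse reached the lowest Ctr mouse, where 0.454% of all genes had that pattern.

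Irf7, the transcription factor that amplifies the response, had -0.69 (95% interval -1.36 to -0.027), and was not called without library 1, 10, 22, 25 or 28 (log2 fold changes -0.70 to -0.47). Of the members that did not pass, Stat2, a signalling factor of the response, was at 0.0019 (95% interval -0.22 to 0.23) and B2m at 0.034 (95% interval -0.22 to 0.28). Parp14, an ADP-ribosyltransferase that is not on the list, had 23.7, 28.1, 34.0, 37.4 and 39.1 in Ctr and 16.4, 17.1, 18.8, 19.7 and 20.7 in Se_Ctr, without overlap (log2 fold change -0.76, 95% interval -1.20 to -0.32). In the fit of all 30 libraries 2 of the 19 were called.

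The promoters of the 3 interferon genes whose groups did not overlap hold the known interferon-stimulated response element. The element, GAAA followed after 2 bases by a further GAAA, was searched on both strands and is in capitals in bases 250 to 1 before the start (RefSeq, build GRCm38.p6); 2.98% of the 32851 promoters hold it in this window. In Ifit1 and Ifit3 it lies on the opposite strand and so reads TTTC, 2 bases, TTTC. Irf7 held no match.
Ifit1 (chr19:34640639-34640888, plus strand): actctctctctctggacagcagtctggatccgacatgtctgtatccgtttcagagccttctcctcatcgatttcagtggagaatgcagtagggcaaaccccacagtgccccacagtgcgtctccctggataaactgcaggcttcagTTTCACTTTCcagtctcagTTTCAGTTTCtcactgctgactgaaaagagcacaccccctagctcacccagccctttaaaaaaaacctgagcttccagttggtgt
Ifit3 (chr19:34583279-34583528, plus strand): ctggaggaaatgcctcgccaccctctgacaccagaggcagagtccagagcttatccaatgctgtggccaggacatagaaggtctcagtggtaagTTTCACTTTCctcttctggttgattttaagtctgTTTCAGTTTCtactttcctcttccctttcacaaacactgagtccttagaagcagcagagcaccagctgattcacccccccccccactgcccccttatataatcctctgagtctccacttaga
Isg15 (chr4:156200819-156201068, minus strand): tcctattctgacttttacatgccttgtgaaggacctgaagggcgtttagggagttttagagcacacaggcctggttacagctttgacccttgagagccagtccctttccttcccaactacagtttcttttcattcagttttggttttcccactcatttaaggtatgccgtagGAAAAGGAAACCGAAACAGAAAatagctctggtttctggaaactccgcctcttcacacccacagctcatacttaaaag
Ifit1 and Ifit3 held 2 matches each, and Isg15 held 3 that overlap in 1 run. The matches are a description of the sequence.

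None of 16 microglia markers, 15 genes of activated microglia, 14 myelin genes or 12 genes of oligodendrocyte precursors was called. Without library 13, 1 microglia marker and 2 genes of activated microglia were higher, and 2 myelin genes and 1 precursor gene were lower, where 6.31% of all genes were called. The microglia marker closest to the threshold was P2ry13, a purine receptor (0.38, 95% interval -0.0088 to 0.76). Of 14 genes of reactive astrocytes, Serpina3n was higher and Cp and Vim lower, against 1.57% and 2.53% of all genes, with the same counts without library 13. Serpina3n, a secreted protease inhibitor, had 713 ± 98.7 normalized counts in Ctr and 898 ± 181 in Se_Ctr (log2 fold change 0.32, 95% interval 0.064 to 0.58), with library 28 far above the rest, and without library 28 or library 1 the call was lost (log2 fold changes 0.21 to 0.23). Cp, the copper-carrying ferroxidase, had 165 ± 43.7 and 106 ± 16.6 (log2 fold change -0.60, 95% interval -0.96 to -0.24). Vim, an intermediate filament of glia and vessels, had -0.30 (95% interval -0.53 to -0.068), and was not called without library 19 (log2 fold change -0.24). Gfap, the defining filament of astrocytes, had 1748 ± 223 and 1792 ± 255 (95% interval -0.19 to 0.25). Of 12 markers of resting astrocytes, the gap junction gene Gjb6 was lower (-0.30, 95% interval -0.54 to -0.058), against 2.53% of all genes, and was not called without library 1 or 19 (log2 fold changes -0.23 to -0.21). Without library 13, 2 of the 12 were lower, against 3.58% of all genes.

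Neuronal markers differed in some genes that mark regions. None of 14 markers of inhibitory neurons, 14 of thalamus and habenula or 13 of striatum was called, and without library 13, 1 marker of thalamus and habenula was lower. Tbr1, a transcription factor of projection neurons of the cortex, was lower at -0.30 (95% interval -0.58 to -0.019), and was not called without library 1, 10, 19, 25 or 28 (log2 fold changes -0.31 to -0.23). Tshz2, a marker of deep neocortical layers, had 219, 327, 381, 402 and 417 normalized counts in Ctr and 60.0, 202, 209, 249 and 260.2 in Se_Ctr (log2 fold change -0.95, SE 0.31, adjusted p = 0.997). Library 28 of Se_Ctr was the lowest, and it was also the lowest of the 10 for Slc17a6, the glutamate transporter of thalamus and subiculum (66.3, 277, 289.6, 297 and 301 in Se_Ctr). Of 14 neocortex markers, 12 had a log2 fold change below 0, with a median of -0.30 (-0.46 to -0.23 with 1 library left out). In this list 2 were called, both lower (Tshz2 and Rorb), against 2.53% of all genes lower. Without library 7 the count was 4, without 10, 13 or 16 it was 3, and without 1, 4, 22, 25 or 28 it was 1. The part of tissue from beside the hippocampus in these values was not tested.

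The median over 18 markers of hippocampal subfields was 0.14 (0.055 to 0.20 with 1 library left out). Of the 18, 4 were higher and none lower, against 1.57% of all genes higher. They were Cpne7 (0.29, 95% interval 0.037 to 0.55), C1ql2 of dentate granule cells (0.27, 95% interval 0.0022 to 0.53), Bok of CA3 (0.32, 95% interval 0.002 to 0.65) and Nr3c2. None of the 4 was called in every fit that left out 1 library. Cpne7 was not called without library 1, 4, 10, 19 or 22 (log2 fold changes 0.18 to 0.27, the lowest of them without library 1), C1ql2 without any one of libraries 1, 4, 10, 13, 16, 19, 22 and 28 (log2 fold changes 0.19 to 0.29), and Bok without 1, 10, 13, 19, 25 or 28 (log2 fold changes 0.22 to 0.35). Without library 1, 10 or 19 none of the 18 was called, without 22 it was 1, and without 4, 13 or 28 it was 2. Under the alternatives that kept all mice, 1 to 4 were higher. Prox1 of the dentate gyrus had 0.16 (95% interval -0.28 to 0.61) and Wfs1 of CA1 0.026 (95% interval -0.35 to 0.40). Of 14 genes of new neurons and dividing cells, Igfbpl1 was higher (0.77, 95% interval 0.0027 to 1.53), against 1.57% of all genes, and was lost without any one of libraries 1, 4, 10, 13, 16, 22 and 25 (log2 fold changes 0.51 to 0.80). Without library 13 none of the 14 was called. Cholesterol synthesis, which had 2 of 19 genes higher against 1.57% of all genes, gave Fdft1 at 0.20 (95% interval 0.038 to 0.36) and Nsdhl at 0.24 (95% interval 0.022 to 0.47), and without library 19 neither was called. Fdft1 was also lost without library 4 (log2 fold changes 0.16 to 0.17), and Nsdhl without 1, 4, 10, 13 or 22 (log2 fold changes 0.19 to 0.23).

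The strongest single differences among called genes averaging 10 or more, with groups that did not overlap, were of varied function. The largest increase was that of Lhfpl1 (ENSMUSG00000041700, chrX:141724902-141783632), a membrane protein of a tetraspan family, with 2.41, 7.56, 10.2, 10.2 and 11.3 normalized counts in Ctr and 13.0, 17.4, 19.9, 21.5 and 26.6 in Se_Ctr (log2 fold change 1.24, SE 0.35, adjusted p = 0.997). Tmem41a, a membrane protein, had 27.2, 34.5, 35.0, 35.9 and 36.1 and 41.4, 45.0, 47.5, 60.9 and 62.1 (0.58, SE 0.18, adjusted p = 0.997). Gpn3, a GTPase linked to RNA polymerase assembly, had 61.4, 73.2, 75.5, 80.9 and 83.1 and 95.9, 99.7, 101, 101 and 118 (0.46, SE 0.13, adjusted p = 0.997).

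Col11a1, a minor collagen chain that neurons express, was higher while the fibroblast collagens were lower, at 377, 467, 467, 495 and 535 normalized counts in Ctr and 536, 544, 581, 592 and 872 in Se_Ctr (log2 fold change 0.40, SE 0.13, adjusted p = 0.997). Slco5a1, Thnsl2, Erich1, Hddc2, Slc22a15 and Hspb11 followed, with log2 fold changes from 0.39 to 0.57. Of these, Thnsl2 (without library 7 or 16), Slc22a15 (without 1) and Hspb11 (without 1 or 22) were not called in single fits.

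Among called genes averaging 10 or more without overlap, the largest decrease was that of RNase_MRP, the RNA of an enzyme that cuts ribosomal and mitochondrial RNA. It had 73.7, 75.4, 100.3, 140.1 and 259 normalized counts in Ctr and 7.03, 14.3, 28.1, 43.2 and 61.7 in Se_Ctr (log2 fold change -2.21, SE 0.46, adjusted p = 0.862). SCARNA6 and SCARNA21, small RNAs of Cajal bodies, had -1.82 and -1.43, and library 13 was far above the rest in both. Without library 13 their log2 fold changes were -1.13 and -0.81, and that of RNase_MRP was -1.92, all still called. Of 15 mitochondrially encoded genes mt-Rnr1 was lower (-0.69), against 2.53% of all genes, and was not called without library 4, 10, 13, 16, 22, 25 or 28 (log2 fold changes -0.75 to -0.28). The small RNAs carry no poly(A) tail of the usual kind, and the libraries were made with a kit for mRNA.

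Mybpc1, a myosin-binding protein known from slow muscle, had 19.2, 21.7, 24.8, 32.1 and 34.0 normalized counts in Ctr and 7.17, 10.4, 10.6, 12.4 and 14.7 in Se_Ctr (log2 fold change -1.18, SE 0.26, adjusted p = 0.862). Crispld2, a secreted glycoprotein, had 33.2, 35.0, 44.0, 57.9 and 69.0 and 15.2, 18.8, 24.8, 26.6 and 27.7 (-1.02, SE 0.24, adjusted p = 0.997). Tns1, which ties the actin skeleton to cell adhesions, had 598 ± 60.2 and 449 ± 41.9 (-0.41, SE 0.09, adjusted p = 0.862), with 1 mouse overlapping.

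The same diet contrast was made in 2 further pairs of groups that share no animal with these, with low-dose mercury (Se_LD against LD) and with high-dose mercury (Se_HD against HD). Of 18854 genes, 477 (2.53%) had an unadjusted p under 0.05 with the low dose, and of 18929 genes 1383 (7.31%) with the high dose, and none passed after adjustment with limma in either. Of the 562 called genes averaging 10 or more normalized counts, 238 (42.3%) had the same direction with the low dose, where 47.7% of all such genes did, and 362 (64.4%) with the high dose, where 56.1% of all did. Of the 562, 8 were called in the same direction with the low dose and 48 with the high dose, 4 and 6 in the opposite one, and none in all 3 comparisons.

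Clock genes had other values in the mercury groups. Their median log2 fold change was -0.18 without mercury, 0.17 with the low dose and 0.10 with the high dose. Nr1d2 had -0.47, 0.22 (SE 0.17) and -0.046 (SE 0.18) in this order, and the difference to the low dose had an adjusted p of 0.998. Hlf had -0.46, 0.17 and 0.27, with adjusted p of the difference of 0.998 and 0.997. Bhlhe41 was lower without mercury and with the high dose (-0.63, SE 0.17) and had 0.12 with the low dose (SE 0.11, adjusted p of the difference 0.998), and Arntl was higher without mercury and with the high dose (0.49, SE 0.16). No test of the selenium effect at a mercury dose against that without mercury passed adjustment over 21383 genes (lowest adjusted p with limma 0.998 for the low and 0.108 for the high dose).

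Sepw1, at 0.24 without mercury, had -0.041 with the low dose (SE 0.13) and 0.70 with the high dose (SE 0.13). Dio2 had -0.24, -0.075 and -0.044. Mt1 was below 0 in all 3, at -0.24, -0.25 and -0.68 (SE 0.11, 0.15 and 0.17). Vwf had -0.29 (SE 0.21) and -0.26 (SE 0.35) with mercury, and Col1a1 -0.30 (SE 0.21) and 0.033 (SE 0.45). Ifit1 had 0.075 (SE 0.37) and -0.92 (SE 0.61).

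Of the genes with the largest increases, Lhfpl1 had -0.029 and -0.17 with mercury, and the difference to the low and the high dose had adjusted p of 0.998 and 0.771. Gpn3 had -0.085 and -0.029 (adjusted p of the difference 0.998 and 0.985). Tshz2 was lower without mercury and with the high dose (-0.82, SE 0.30) and was at -0.025 with the low dose (SE 0.22). In 20 genes averaging 10 or more there was a call without mercury and with 1 or more mercury dose, with the same sign in all 3 comparisons. Tshz2 and Mt1 are among these 20. The next 3 genes, also among them, were picked after their values were seen. Each had a call both without mercury and with the high dose, and none of the 3 was called with the low dose. Ywhaq, a 14-3-3 protein, had 0.18, 0.015 and 0.25, with all Se_Ctr mice above all Ctr mice, where 0.306% of all genes had that pattern. Crmp1, a protein of growing axons, had 0.22, 0.044 and 0.21, and Fli1, a transcription factor of endothelium and blood cells, -0.37, -0.037 and -0.52.

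**Figure D5:**
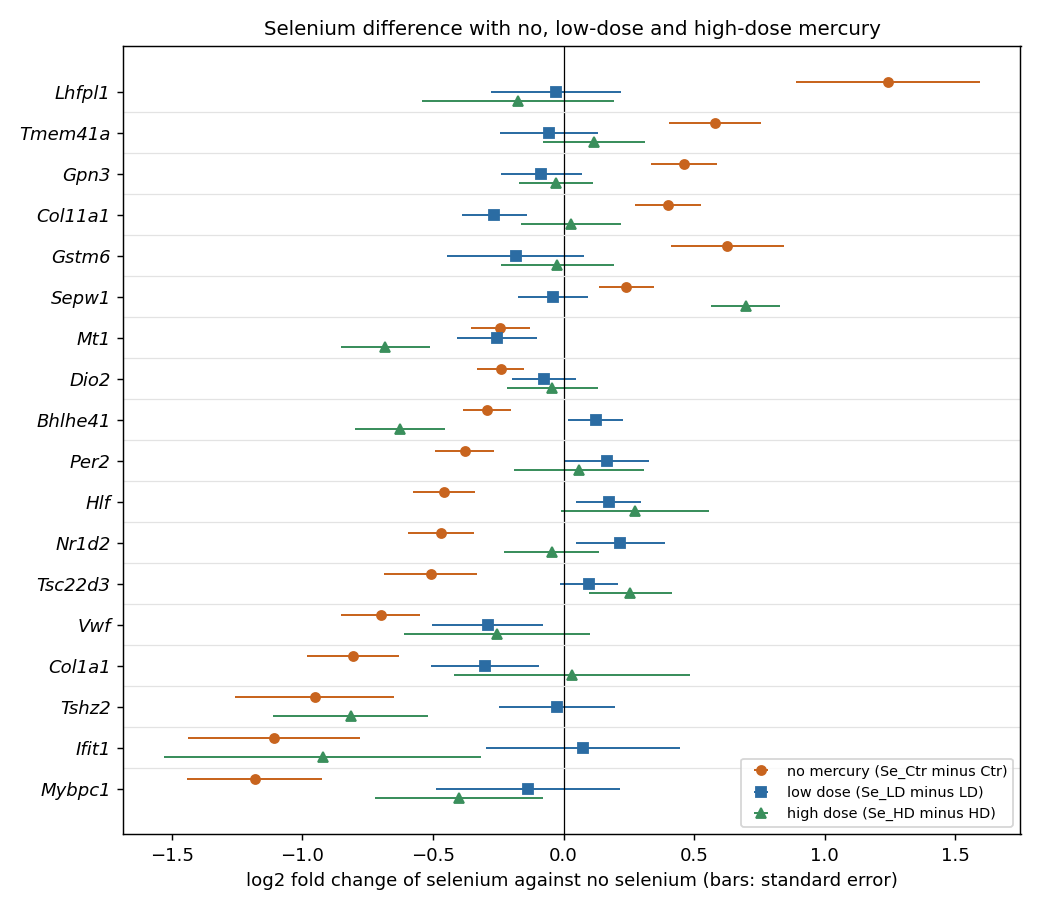
Log2 fold change of selenium against no selenium in mice with no mercury (Se_Ctr minus Ctr, circles), low-dose mercury (Se_LD minus LD, squares) and high-dose mercury (Se_HD minus HD, triangles), 5 mice a group, with the standard error as a bar, for 18 genes named in the text. Clock genes Per2, Hlf and Nr1d2 lie below 0 without mercury and above 0 with the low dose; Mt1 lies below 0 in all 3.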

How the data were processed

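Polyadenylated RNA of the hippocampus was sequenced from 1 library per RNA sample. Per the submitters' processing notes, reads were handled with Trim Galore 0.4.2 and FastQC, HISAT2, featureCounts and DESeq2, on mouse build NCBIM37; other versions are not given in the sources used here. The deposited signal values are gene counts that the authors divided by a DESeq2 size factor of each of 30 libraries (normalized counts). Whole reads were recovered from the step between low values, and 100% of values came out whole within 0.001 of a read; there were 0 columns of no sample. Genes with a sum of at least 10 over the 10 libraries were tested on log2(normalized count + 1) with limma 3.58.1 (variance trend, R 4.3.3, two-sided, Benjamini-Hochberg adjustment), which understates fold changes of low genes. The script was tested on simulated data. The samples, the 35 gene lists and the tests were chosen with earlier results of these data known. Named genes were the 10 largest changes in each direction among genes with an unadjusted p under 0.05, an average of 10 or more and no overlap between groups, the 5 lowest p, all selenoprotein and selenium uptake genes, and up to 4 called members (or the 1 of lowest p) of each other list; well-known members and copies are named beside them whatever their p. As alternatives, the pseudocount was set to 0.1 or 10, genes were kept at an average of 10 or more or without any filter, and the fit was repeated with other size factors, quantile normalization, no trend, all 30 libraries, a covariate for sets of 6 consecutive library numbers, edgeR 4.0.16 and DESeq2 1.42.0 on recovered reads, and leaving out each library. List counts under these alternatives and without library 13 were added after seeing the data. Some items are not reported here. Figures used matplotlib 3.10.9.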

Additional observations from a re-analysis of the deposited data

Results flagged for a closer look

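In 19 of 230 groups of 5 mice, 1 mouse lay so far from the others that its gap to the nearest, divided by the range of the group, passed 0.71; chance gives about 1 in 20, or 11.5 groups. Library 28 was the far mouse in 8 of the 19 and library 13 in 6. Library 28 was high within Se_Ctr for Col11a1 (ratio 0.833), Elavl1 (0.734), Tfrc (0.763), Lpl (0.799) and Serpina3n (0.787), and low for Ifit1 (0.723), Slc17a6 (0.896) and Tshz2 (0.711). Library 13 was high within Ctr for SCARNA6 (0.939), SCARNA21 (0.949), Dio3 (0.787) and mt-Rnr1 (0.892), and low for Tmem41a (0.826) and Eif4a3 (0.745). The other far mice were library 16 for Gpn3 (0.767, high), library 22 for Hspb11 (0.822, high), library 10 for Sepp1 (0.719, high), library 19 for Nr1d2 (0.714, low) and library 7 for Plin4 (0.72, high).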

How the results depend on the processing

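No gene passed adjustment with limma, edgeR or DESeq2 under any alternative run. The count of 777 genes at an unadjusted p under 0.05 was 572 to 899 under the alternatives that kept all mice, and 602 to 1171 when 1 library was left out; the 1171, and 507 higher genes in place of 298 (217 to 507 over single libraries left out), came without library 13, and the cause was not tested. The lowest adjusted p was 0.27 with sets of library numbers as a covariate and 0.116 with DESeq2. Of 69 named genes with an unadjusted p under 0.05, 31 kept their call under every alternative; 227 of 1446 values no longer passed and none reversed. Of 45 named genes that did not pass, 28 of 943 values passed. With quantile normalization 52.6% of called genes were lower, against 61.6%. The labels give no replicate numbers shared by the groups; in the fit with sets of 6 consecutive library numbers as a block, each holding 1 mouse of either group, 857 genes had an unadjusted p under 0.05, and 3 of 21 choroid plexus markers were higher, against none without it. The precision is limited by 5 mice a group and, for genes of few reads, by depth.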
